A study of Mus musculus with 4 samples.

Results

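The p53 pathway genes described here are a set of 37 genes: the gene of p53 itself, its inhibitors Mdm2 and Mdm4, and targets with roles in apoptosis, DNA repair, growth arrest and metabolism. They were matched by symbol to the probe sets of the array platform, and a gene was read from the probe set with the highest mean signal over all arrays. Of the 37 genes, 34 had a probe set named here, out of 18193 genes so named in all. Trp53, Bax and Gdf15 had none and were not analysed here, so the level of p53 mRNA in these cells was not read. Total RNA was hybridised to 4 single-colour arrays, 2 of wild-type 3T3-MEFs and 2 of SMRTmRID 3T3-MEFs. Both kinds of cell were mouse embryonic fibroblasts grown as 3T3 lines, undifferentiated and without added agents according to the labels, and collected once confluent. SMRTmRID cells carry a form of the corepressor SMRT altered in its receptor interaction domains, through which nuclear receptors contact it. The comparison asks how p53 target expression differs between these genotypes before differentiation.

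The labels name the arrays of a genotype as technical replicates and do not say how many lines, embryos or clones stand behind them. The p-values therefore measure spread between technical replicates, and the effect of the genotype and a difference between independently derived lines cannot be told apart. The transcript of the altered corepressor was not analysed here, so no value checks the genotype labels. As background, fibroblasts passed serially into 3T3 lines often lose p53 or the Arf protein as they escape senescence, and the labels do not give the p53 status of either line.

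p53 is a transcription factor that DNA damage and other stresses stabilise. It binds paired copies of a short consensus near its targets and raises transcription of genes that stop the cell cycle, repair DNA, alter metabolism or start apoptosis. Mdm2 is both a target and the ubiquitin ligase that sends p53 for degradation, which closes a feedback loop, and Mdm4 is a relative that binds and restrains p53 without being a strong ligase.

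The arrays of a genotype resembled each other closely (Pearson's r of 0.991 across genes for each pair), and actin 3′ to 5′ signal ratios lay between 1.187 and 1.204. Of the fibroblast markers, 9 of 10 were above the filter on signal in both genotypes. The exception was Thy1, with signals of 20.6 and 6.57 on the wild-type arrays and 3172 and 3184 on the SMRTmRID arrays. Summed signals of the 10 fibroblast markers ran from 78258 to 79887 in wild-type and from 90962 to 95491 in SMRTmRID. Single markers differed more than these sums. Pdgfra went from 247 and 262 to 4828 and 5090, and Pdgfrb from 1719 and 1879 to 6310 and 6115. Of the 10, 5 rose and 4 fell (limma adjusted p under 0.05), against 30.3% and 35.0% of all genes. The greatest fall was a log2 difference of -0.31. All 5 endothelial and all 3 measured mature adipocyte markers lay below the filter. The 6 epithelial markers summed to 266 to 310 in wild-type and 275 to 293 in SMRTmRID, and the 6 blood markers to 112 to 133 and 191 to 198. Of the blood markers, Lyz2 went from 27.4 and 15.6 to 104.7 and 95.3, and passed the filter through SMRTmRID alone. Cd68, Ptprc and Itgam had means over all arrays below the filter. Cd68 went from 40.9 and 31.0 to 11.1 and 26.6, Ptprc and Itgam had higher signals in SMRTmRID, and Adgre1 and Cd3e overlapped. Single epithelial markers moved in opposite directions. Krt19 went from 6.11 and 4.98 to 53.9 and 82.8, and passed the filter through SMRTmRID alone. Epcam went from 187 and 171 to 137 and 132. Cdh1, whose mean over all arrays was below the filter, went from 55.9 and 42.3 to 2.41 and 1.61. Among 5 skeletal muscle markers the sum was 221 to 372 in wild-type and 69.1 to 71.5 in SMRTmRID, with the regulators Myod1 and Myog below the filter. That fall was in Acta1 (324 and 203 against 8.63 and 4.35), while Myog and Des, both below the filter, had higher signals in SMRTmRID. The 5 cartilage markers summed to 2815 to 2923 and 371 to 406. Col2a1 went from 2555 and 2703 to 46.1 and 29.3, while Sox9 rose from 200.2 and 178 to 251 and 253 (limma adjusted p = 0.0101), and Col9a1 and Matn1, whose mean over all arrays was below the filter, had higher signals in SMRTmRID. The part of these marker differences in the results on p53 targets was not tested.

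Copies of the p53 consensus in the promoters of members are shown first because p53 binds such letters directly and they come from outside the expression data, although most members with a promoter window had no exact copy. The motif searched was the p53 decamer, which has the core CNNG with A or T at both middle positions, purines before it and pyrimidines after it. It reads the same way on both strands. RefSeq promoter windows of 300 bases on GRCm38.p6 (250 before a start and 50 after) were found for 29 of the 37 members, 42 windows in all, since some genes have several starts. An exact decamer lay in 12 of the 42 windows (28.6%) against 8.36% of all 32851 windows. Because most members were listed as p53 targets, this greater share is no independent result. These 12 windows belonged to 11 genes, of which 7 fell and 2 rose in SMRTmRID. Over all genes tested, 35.0% were called lower and 30.3% higher. The remaining genes with a decamer, Trp53 and Bax, had no signal to report. An exact decamer was about as frequent in the 29 windows of members that fell (27.6%) as in the 8 of members that rose (25%). The paired form, 2 decamers with intact cores at most 13 bases apart and at most 2 mismatches in total, was in 3 member windows (7.14%, against 2.12% of all windows), those of Rps27l, Sesn1 and Bax. That was 1 window of members that fell (3.45%) and 1 of members that rose (12.5%). GGGCGG on either strand was in 61.9% of member windows against 35.7% of all windows, and median GC content was 61.3% against 52.7%. A match describes letters in a window, not binding. The sequences below lie upstream of a start and run 5′ to 3′ on the gene's strand, with the decamers in capitals. The paired decamers of Sesn1 and Rps27l have 2 and 1 mismatches in total, and the single decamers of the other genes are exact. Those of Aen and Rps27l are cut to 30 bases because another start of the gene lies upstream of them. The sites of Polk, which rose, and of Trp53 and Bax are not printed.
Ccng1 (chr11:40755422-40755511, minus strand): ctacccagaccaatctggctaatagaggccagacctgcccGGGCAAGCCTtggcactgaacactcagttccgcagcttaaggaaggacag
Mdm2 (chr10:117710895-117710984, minus strand): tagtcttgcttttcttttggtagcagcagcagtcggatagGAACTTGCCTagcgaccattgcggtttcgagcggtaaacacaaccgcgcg
Aen (chr7:78895927-78895956, plus strand): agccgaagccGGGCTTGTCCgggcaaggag
Ei24 (chr9:36797335-36797384, minus strand): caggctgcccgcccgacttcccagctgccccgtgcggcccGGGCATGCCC
Ddit4l (chr3:137623542-137623631, plus strand): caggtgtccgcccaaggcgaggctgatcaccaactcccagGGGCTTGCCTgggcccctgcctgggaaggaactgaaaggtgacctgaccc
Gadd45a (chr6:67037408-67037487, minus strand): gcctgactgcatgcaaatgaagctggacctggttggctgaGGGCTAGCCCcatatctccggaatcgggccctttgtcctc
Rps27l (chr9:66946291-66946320, plus strand): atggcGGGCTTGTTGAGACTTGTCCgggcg
Sesn1 (chr10:41887213-41887315, plus strand): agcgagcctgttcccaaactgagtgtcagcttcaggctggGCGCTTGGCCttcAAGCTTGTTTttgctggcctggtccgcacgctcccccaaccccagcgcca

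Most p53 pathway members were lower in SMRTmRID than in wild-type cells. Of the 34 members tested, 24 fell, 7 rose and 3 did not pass the test (limma, Benjamini-Hochberg adjusted p under 0.05 over all 11056 genes tested). Over all genes 65.2% were called in either direction. The falls were 70.6% of the members, against 35.0% of all genes called lower, and the rises 20.6%, against 30.3% called higher. The members' median log2 difference was -0.85, against -0.05 over all genes tested. Because the members were chosen with earlier results of these data known, these shares carry no test of their own. At least 2-fold falls were seen in 14 members (6.79% of all genes) and at least 2-fold rises in none of the 34 (9.69% of all genes). Every difference is the SMRTmRID mean less the wild-type mean of log2(signal + 16), which understates changes from low signals, and levels are MAS5 signals of single probe sets. All 34 had a mean signal above 35.1, the median of all values, which was the filter for testing. Eda2r and Plk3 passed it through their wild-type level alone. In RNA of whole cultures, fewer cells that express a gene and less of its RNA per cell cannot be told apart.

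**Figure D1:**
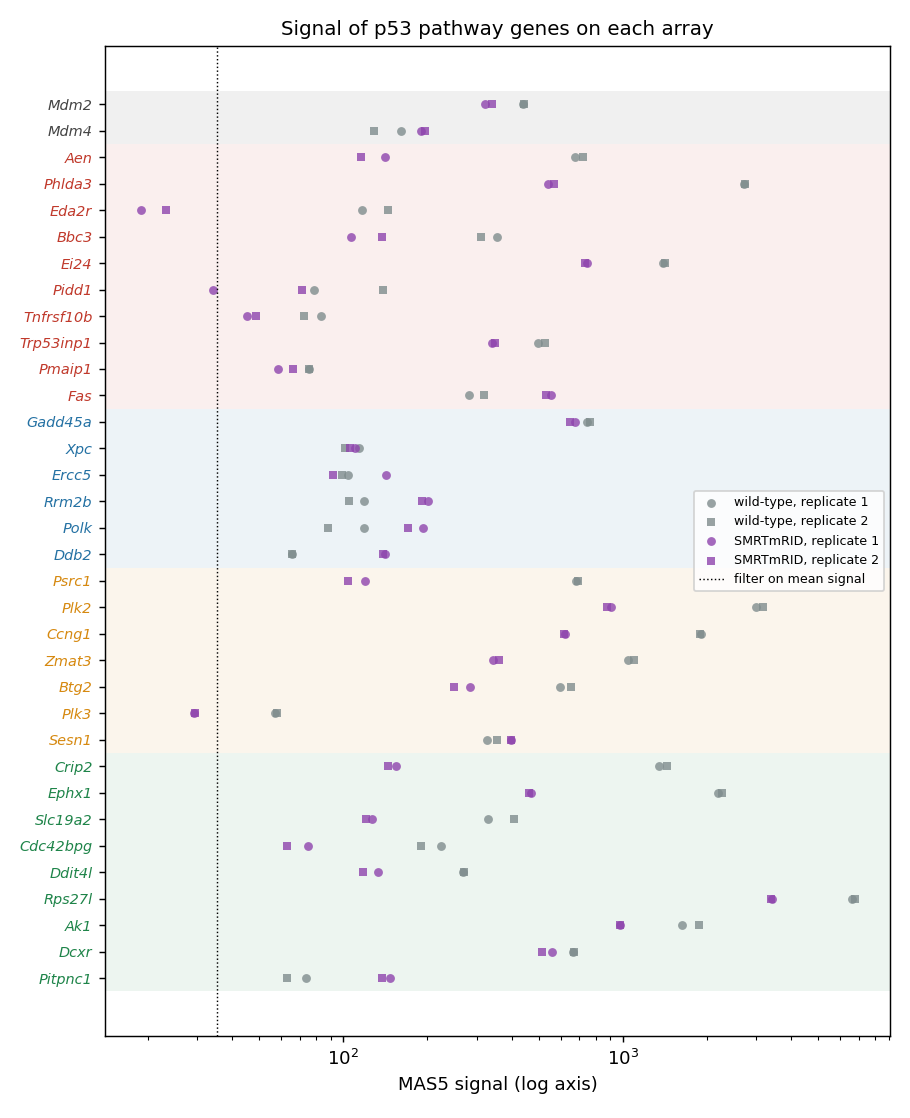
MAS5 signal of 34 p53 pathway genes (log horizontal axis) on each of the 4 arrays, grouped by role, with circles and squares for replicates 1 and 2; the dotted line is the filter at 35.1. For 25 genes both SMRTmRID arrays (purple) lie left of both wild-type arrays (grey), for 7 they lie right, and for Xpc and Ercc5 they overlap.

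The arrays of a genotype were closer to each other than the genotypes were for nearly all members. The median gap between the 2 wild-type arrays was 0.0851 (log2) and that between the 2 SMRTmRID arrays 0.0717, while the median absolute difference between genotypes was 0.91, against 0.43 over all genes tested. The difference exceeded the gap within either genotype for 32 of 34 members (75.4% of all genes). Both SMRTmRID arrays lay below both wild-type arrays for 25 members (43.4% of all genes) and above them for 7 (38.1% of all genes). The members lay on 16 chromosomes. Chromosome 1 held the most, with 6, of which Phlda3, Ephx1, Slc19a2 and Btg2 fell, Mdm4 rose and Ercc5 did not pass.

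The inhibitors of p53 moved in opposite directions and by small amounts. Mdm2 had signals of 441 and 444 on the wild-type arrays and 321 and 342 on the SMRTmRID arrays, a log2 difference of -0.40 ± 0.08 (SE, n = 2 arrays in each genotype, limma adjusted p = 0.00138). A second probe set above the filter gave -0.59, but with the mean of all 3 probe sets, 1 of them near background, the difference was -0.29 and did not pass (limma, adjusted p = 0.146). Mdm4 had signals of 160 and 129 on the wild-type arrays and 189 and 197 on the SMRTmRID arrays, a difference of 0.38 ± 0.13 (SE, log2 scale, limma adjusted p = 0.0294). Its 3 probe sets above the filter all pointed upward, between 0.24 and 0.57. The Mdm4 call was lost without a filter (limma, adjusted p = 0.0684), without wild-type replicate 2 (0.171) and without SMRTmRID replicate 1 (0.0612) or 2 (0.0990), with differences from 0.25 to 0.41. It was also lost with the second brightest probe set (0.300) and with the mean of all probe sets (0.258).

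Apoptosis genes were the largest group, and 8 of the 10 tested fell (35.0% of all genes were called lower). Aen, a nuclease that degrades nucleic acids during apoptosis, had signals of 677 and 718 on the wild-type arrays and 142 and 116 on the SMRTmRID arrays. The genotypes did not overlap, and the log2 difference was -2.31 ± 0.11 (SE, limma adjusted p = 1.06e-07), or 4.95-fold lower. All 4 Aen probe sets were lower, by log2 differences from -2.87 to -0.70. Phlda3, which restrains the survival kinase Akt by competing for membrane lipids, went from 2725 and 2749 to 539 and 567. Its difference of -2.27 ± 0.05 (SE, log2 scale, limma adjusted p = 1.50e-09) was exceeded in its fall by 0.904% of all genes. Eda2r, a receptor of the tumour necrosis factor family, had signals of 117 and 144 on the wild-type arrays and 18.8 and 23.1 on the SMRTmRID arrays, where it was below the filter. Its difference of -1.98 ± 0.22 (SE, limma adjusted p = 3.27e-05) became -1.19 with a pseudocount of 64.

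The genes of BH3-only proteins, which free the mitochondrial death pathway by binding Bcl-2 relatives, were Bbc3 and Pmaip1, and Bbc3 fell. Bbc3, which encodes Puma, had signals of 354 and 312 on the wild-type arrays and 107 and 137 on the SMRTmRID arrays, a difference of -1.34 ± 0.13 (SE, log2 scale, limma adjusted p = 1.71e-05). Pmaip1, which encodes Noxa, had signals of 75.6 and 75.3 against 58.5 and 65.9. The arrays did not overlap, but the difference of -0.23 ± 0.19 (SE) did not pass (limma adjusted p = 0.323). Whether Bbc3 and Pmaip1 differ in their response was not tested.

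Ei24, a membrane protein of the endoplasmic reticulum first described as p53-induced, fell from 1395 and 1418 to 746 and 736, a log2 difference of -0.91. Trp53inp1, a nuclear cofactor of p53 in stress, fell from 498 and 528 to 341 and 349 (log2 difference -0.55), and a second probe set gave -0.59. Pidd1, the scaffold on which caspase-2 is activated, had signals of 78.4 and 139 on the wild-type arrays and 34.0 and 71.0 on the SMRTmRID arrays. Its arrays differed within each genotype by 0.71 and 0.80 (log2), nearly as much as the genotypes did (difference -0.87 ± 0.31 SE on the log2 scale, limma adjusted p = 0.0315). That call was lost without wild-type replicate 2 (-0.52, adjusted p = 0.227), without SMRTmRID replicate 1 (-0.47, 0.179), without a filter (0.103) and without a variance trend (0.111).

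The death receptor genes diverged. Tnfrsf10b, the receptor of the ligand Trail, had signals of 83.2 and 72.5 on the wild-type arrays and 45.1 and 48.6 on the SMRTmRID arrays (difference -0.58 ± 0.20 SE on the log2 scale, limma adjusted p = 0.0316). The call was lost when any array was left out (limma, adjusted p between 0.0605 and 0.148, differences from -0.66 to -0.49) and without a filter (0.0922), while its second probe set gave -1.21. Fas, the receptor of Fas ligand, was the only apoptosis gene among the 10 tested that rose. Its signals were 283 and 319 on the wild-type arrays and 552 and 530 on the SMRTmRID arrays, without overlap, a difference of 0.82 ± 0.08 (SE, log2 scale, limma adjusted p = 1.97e-05).

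**Figure D2:**
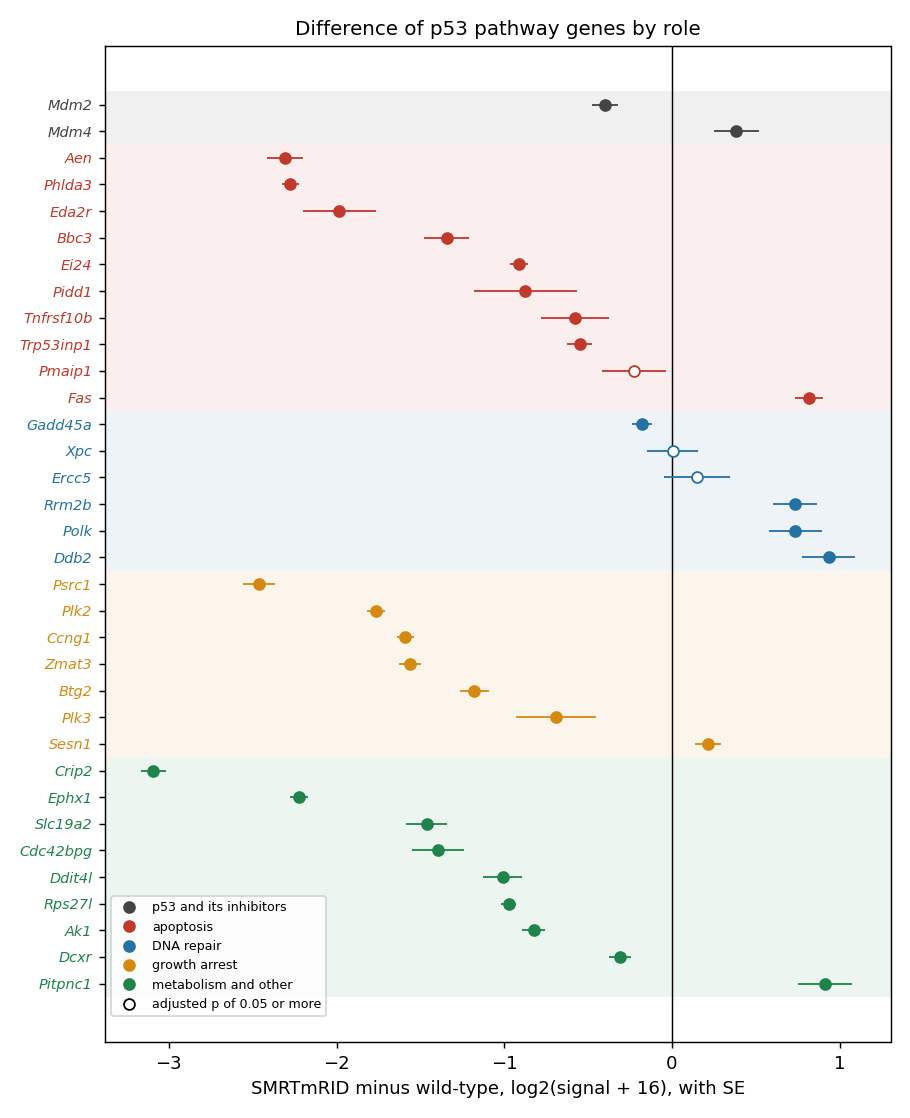
Log2 difference, SMRTmRID minus wild-type, of 34 p53 pathway genes with limma's standard error, coloured and grouped by role; open circles did not pass the test. Apoptosis, growth arrest and metabolism genes lie mostly left of 0, while 3 of 6 DNA repair genes, Rrm2b, Polk and Ddb2, lie near 0.7 to 0.9 on the right.

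Among the 6 DNA repair genes there were 3 rises and 1 fall, and 2 were not called, against 30.3% of all genes called higher and 35.0% called lower. Whether this group differs from the other roles was not tested. The median was 0.44 (log2). Ddb2, part of the complex that recognises ultraviolet damage in chromatin, had signals of 65.6 and 65.3 on the wild-type arrays and 141 and 138 on the SMRTmRID arrays. This difference of 0.93 ± 0.16 (SE, log2 scale, limma adjusted p = 0.000558) was the greatest rise among the members, and a second probe set gave 0.74. Rrm2b, the p53-inducible subunit of ribonucleotide reductase that supplies nucleotides for repair, had signals of 118 and 105 against 201 and 192 (difference 0.74 ± 0.13 SE on the log2 scale, limma adjusted p = 0.000756). All 4 Rrm2b probe sets were higher in SMRTmRID, from 0.32 to 1.06. Polk, a polymerase that copies past damaged bases, had signals of 119 and 88.4 against 193 and 171 (difference 0.74 ± 0.16 SE on the log2 scale, limma adjusted p = 0.00269). Its second probe set gave 0.26 and did not pass (limma, adjusted p = 0.284).

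The other repair genes differed little. Gadd45a, a stress protein that binds the sliding clamp of replication, had signals of 742 and 764 on the wild-type arrays and 677 and 650 on the SMRTmRID arrays. Its small fall (difference -0.18 ± 0.06 SE on the log2 scale, limma adjusted p = 0.0265) was lost without wild-type replicate 2 (0.101) or SMRTmRID replicate 2 (0.122), with quantile normalization (0.0607) and without a variance trend (0.0847). Xpc, which recognises helix distortion at the start of excision repair, was nearly equal at 114 and 101 against 110 and 106. Ercc5, an endonuclease of the same pathway, had signals of 104 and 99.1 against 142 and 91.7, so that its arrays overlapped.

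Growth arrest genes fell with the exception of Sesn1. Of 7 tested, 6 fell (35.0% of all genes were called lower), 5 of them at least 2-fold (6.79% of all genes). Psrc1, a p53-regulated protein of the mitotic spindle, had signals of 682 and 691 on the wild-type arrays and 119 and 104 on the SMRTmRID arrays, a difference of -2.46 ± 0.10 (SE, log2 scale, limma adjusted p = 3.87e-08), and a second probe set gave -1.95. Plk2, a stress-responsive polo-like kinase, went from 2996 and 3185 to 912 and 882, a difference of -1.77 ± 0.05 (SE, log2 scale, limma adjusted p = 7.29e-09). A dim second Plk2 probe set, below the filter, took the mean of both to -0.53. Plk3, a related kinase, had low signals of 56.7 and 57.8 against 29.1 and 29.5, the latter below the filter. Its difference of -0.69 ± 0.24 (SE, limma adjusted p = 0.0289) was lost when any array was left out (limma, adjusted p between 0.0725 and 0.105) and without a filter (0.0724), and became -0.38 with a pseudocount of 64.

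Ccng1 encodes cyclin G1, which recruits a phosphatase to Mdm2, and has the decamer printed above. Its signals were 1909 and 1890 on the wild-type arrays and 622 and 618 on the SMRTmRID arrays, 3.01-fold lower (difference -1.59 ± 0.05 SE on the log2 scale, limma adjusted p = 1.34e-08). All 3 probe sets fell between -1.92 and -1.32. Zmat3, an RNA-binding zinc finger protein, fell from 1041 and 1099 to 344 and 361 (log2 difference -1.56). Btg2, an antiproliferative cofactor, fell from 596 and 652 to 285 and 250 (log2 difference -1.18), and its second probe set gave -1.31.

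Sesn1, a sestrin that restrains growth signalling through mTORC1, had signals of 328 and 354 on the wild-type arrays and 398 on both SMRTmRID arrays. The rise was small (difference 0.22 ± 0.08 SE on the log2 scale, limma adjusted p = 0.0392). Its 3 probe sets above the filter all pointed upward, from 0.22 to 0.53. The call was lost without wild-type replicate 1 (limma, adjusted p = 0.172) and without SMRTmRID replicate 1 (0.106) or 2 (0.105). It was also lost without a filter (0.0554), with quantile normalization (0.0529), without a variance trend (0.0646) and with the mean of all probe sets (0.268).

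Members with metabolic or other roles included the greatest fall. Of 9, 8 fell and 1 rose, against 35.0% of all genes called lower and 30.3% called higher. Crip2, a LIM-domain protein, had signals of 1352 and 1436 on the wild-type arrays and 154 and 144 on the SMRTmRID arrays, 8.53-fold lower (difference -3.09 ± 0.07 SE on the log2 scale, limma adjusted p = 1.89e-09). Only 0.389% of all genes tested had a greater fall. Ephx1, the microsomal epoxide hydrolase that detoxifies reactive epoxides, went from 2201 and 2274 to 471 and 463, a difference of -2.22 ± 0.05 (SE, log2 scale, limma adjusted p = 1.89e-09). For both genes the lowest wild-type signal was several times the highest SMRTmRID signal.

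Slc19a2, a thiamine transporter, had signals of 331 and 409 against 126 and 120, and its 3 probe sets gave log2 differences between -1.52 and -1.46. Cdc42bpg, a kinase that acts downstream of Cdc42, had signals of 224 and 189 against 74.6 and 62.8 (log2 difference -1.39). Ddit4l, an inhibitor of mTOR signalling, had 268 and 270 against 134 and 118 (log2 difference -1.01). Its 3 probe sets all fell, with the smallest at -0.37.

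Rps27l, a ribosomal protein relative that p53 induces, had signals of 6651 and 6780 on the wild-type arrays and 3431 and 3390 on the SMRTmRID arrays (difference -0.97 ± 0.04 SE on the log2 scale, limma adjusted p = 8.89e-08). Its brightest probe set and 1 of the other 2 are of a type that may bind other transcripts, and both of these other probe sets gave -0.99. Ak1, a cytosolic adenylate kinase, fell from 1627 and 1873 to 981 and 979 (log2 difference -0.82), and the mean with a second Ak1 probe set below the filter was -0.40. Dcxr, a reductase of dicarbonyl compounds and xylulose, fell slightly, from 665 and 670 to 558 and 514 (log2 difference -0.31).

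Pitpnc1, a phosphatidylinositol transfer protein, rose from 73.3 and 62.8 to 147 and 138 on its brightest probe set (difference 0.91 ± 0.16 SE on the log2 scale, limma adjusted p = 0.000768). It was the 1 member whose probe sets above the filter disagreed in direction. Of its 4, one gave -0.92 through a single low SMRTmRID array (10.1, against 82.1 on the other). The second brightest gave 0.34 and did not pass (limma, adjusted p = 0.132), and the mean of all 9 was 0.07 (0.775).

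**Figure D3:**
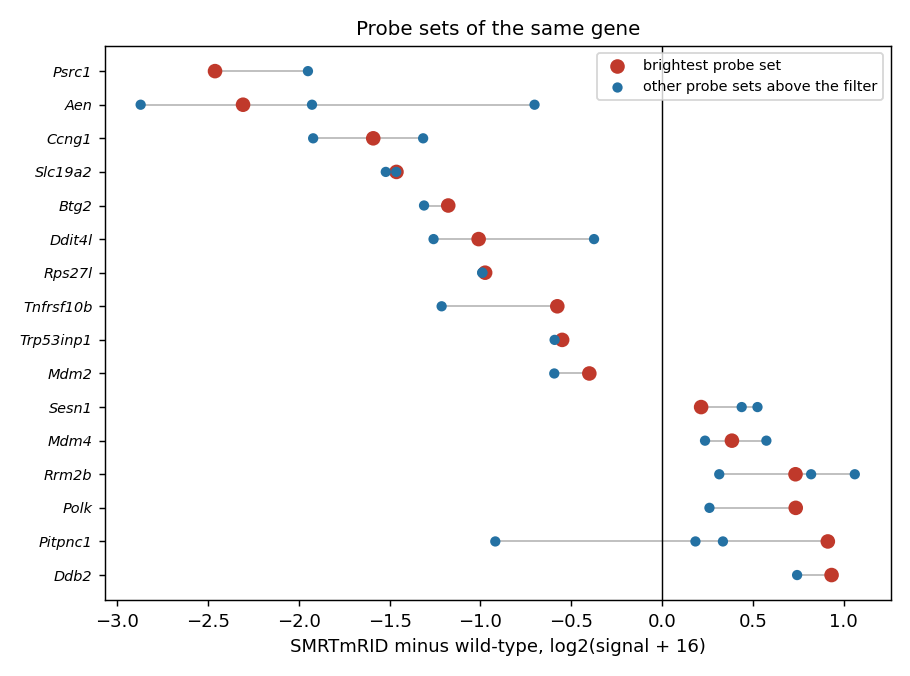
Log2 difference, SMRTmRID minus wild-type, of each probe set above the filter for the 16 members with at least 2 such probe sets; large red points are the brightest, small blue points the others. In 15 of the 16 genes all points lie on the same side of 0, and Pitpnc1 is the exception.

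Probe sets of the same gene are separate measurements of it on the same arrays. Of the 16 members with several above the filter, 15 had every one in the same direction, and the other 18 members rested on a single probe set above the filter. The brightest probe sets of Mdm4, Sesn1 and Tnfrsf10b, like that of Rps27l, are of types that several transcripts may share. The Mdm4, Sesn1 and Tnfrsf10b probe sets above the filter without this mark gave 0.24 and 0.57, 0.53, and -1.21 in that order. Relative to all genes, the members' differences were shifted downward over most of their range. For 6 members above the filter in both genotypes, Crip2, Psrc1, Aen, Phlda3, Ephx1 and Plk2, fewer than 2% of all genes had a greater fall.

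**Figure D4:**
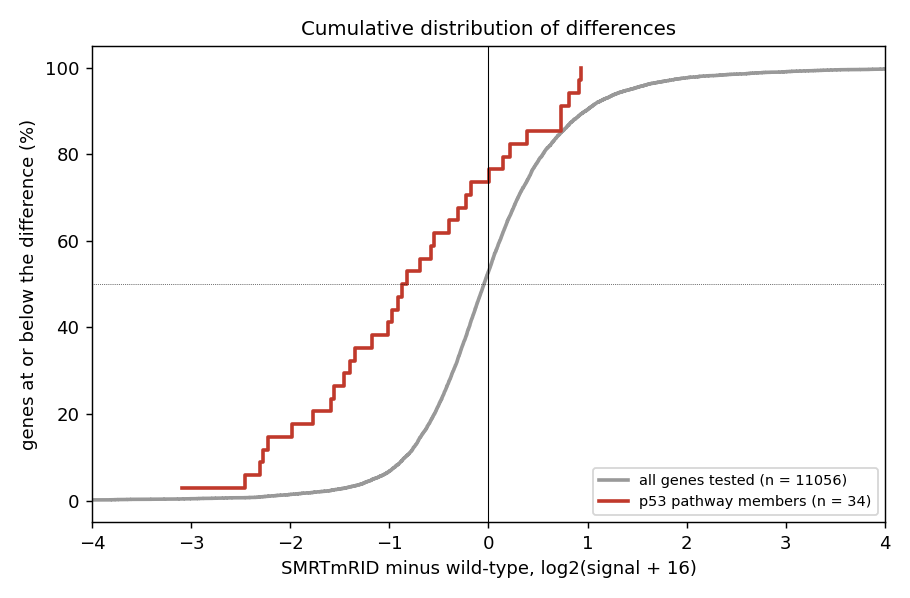
Percentage of genes (vertical axis) at or below each log2 difference, SMRTmRID minus wild-type, for 34 p53 pathway members (red) and all 11056 genes tested (grey); the horizontal axis is limited to -4 to 4. The red curve crosses 50% near its median of -0.85 and the grey curve near -0.05, and the red curve ends at 0.93.

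Other p53 targets were read from a further list of 40 genes, of which 36 were named and 34 tested. Like the members and the lists described next, it was chosen with earlier results of these data known. Its counts are therefore no independent support for those of the members. Of these 21 fell (61.8%, against 35.0% of all genes), 6 rose (17.6%, against 30.3%) and 7 were not called. The median was -0.41 (log2). Cdkn1a, the gene of p21, an inhibitor of cyclin-dependent kinases, had signals of 2374 and 2325 on the wild-type arrays and 171 and 139 on the SMRTmRID arrays (difference -3.79 ± 0.09 SE on the log2 scale, limma adjusted p = 1.50e-09). Perp, a desmosome-associated target, went from 1147 and 1128 to 15.3 and 20.2, below the filter. Sulf2, a heparan sulfate sulfatase, had a log2 difference of -2.42, although 1 of 3 Sulf2 probe sets pointed the other way. Dusp5, a phosphatase of the kinase Erk, went from 146 and 135 to 12.97 and 20.7. Perp and Dusp5 passed the filter through wild-type alone, so the size of their fall is set against background signals. Dram1, a lysosomal protein that promotes autophagy, was singled out after its values were seen. It rose from 709 and 719 to 2680 and 2681, a difference of 1.88 ± 0.05 (SE, log2 scale, limma adjusted p = 3.13e-09). With the mean of all probe sets or the second brightest, 3 genes of the list rose.

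Among genes that act upstream of p53, more were called higher than lower. Of 24 listed, 21 were tested, and 10 rose (47.6%, against 30.3% of all genes), 3 fell (14.3%, against 35.0%) and 8 were not called. The median was 0.15 (log2). Cdkn2a, whose Arf product sequesters Mdm2 and whose Ink4a product inhibits cyclin-dependent kinases, had signals of 159 and 114 on the wild-type arrays and 623 and 670 on the SMRTmRID arrays. Its log2 difference was 2.13 ± 0.13 (SE, limma adjusted p = 7.59e-07), and the probe set is not assigned to either product here. Hipk2, a kinase that phosphorylates p53 in the apoptotic response, rose from 263 on both wild-type arrays to 834 and 983 (difference 1.72 ± 0.09 SE on the log2 scale, limma adjusted p = 1.92e-07), and all 7 Hipk2 probe sets above the filter were higher. Trp63, a p53 relative, had low signals of 41.9 and 67.9 against 95.9 and 92.6 (log2 difference 0.66). The genes that fell were Ppp1r13b, a p53-binding activator of its apoptotic targets, at -0.71, the acetyltransferase gene Kat5 at -0.50 and the ribosomal protein gene Rpl11 at -0.21. Without wild-type replicate 1, or either SMRTmRID replicate, 6 of the list rose.

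Cell cycle genes that p53 lowers indirectly, through p21 and the DREAM complex, were mostly lower in SMRTmRID. They thus moved in the same direction as Cdkn1a and most targets that p53 raises, although p53 acts on these kinds of gene in opposite directions. The cause was not tested. Of 17 tested, 15 fell (88.2%, against 35.0% of all genes), 1 rose (5.88%, against 30.3%) and Kif23 was not called. The median was -0.62 (log2). Mybl2, a transcription factor of late S phase, went from 215 and 221 to 49.8 and 44.9, a log2 difference of -1.88. Mcm5, of the replicative helicase, was lower by a log2 difference of -1.61, and Plk1 and Birc5, which act in mitosis, by -1.35 each. Bub1, a kinase of the spindle checkpoint, was the gene that rose, from 174 and 183 to 275 and 283 (log2 difference 0.60). With the mean of all its probe sets the Bub1 difference was 0.15 and did not pass (limma adjusted p = 0.309), and its second brightest probe set was below the filter.

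**Figure D5:**
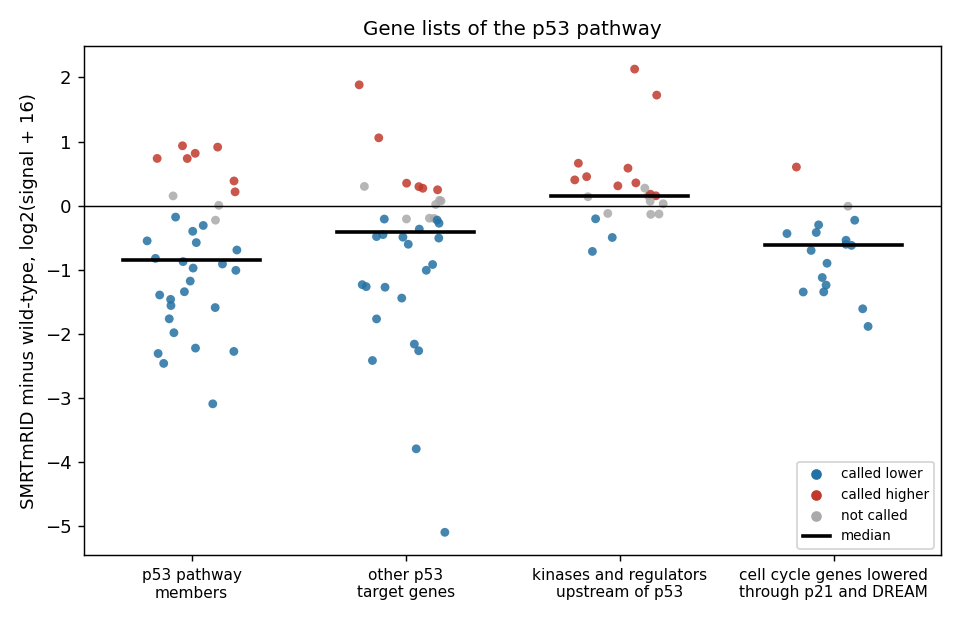
Log2 difference, SMRTmRID minus wild-type, of the tested genes of 4 lists, with each point a gene, black bars the list medians and colours the calls (limma, adjusted p under 0.05). Medians are -0.85 for the members, -0.41 for other p53 targets, 0.15 for upstream regulators and -0.62 for the cell cycle genes.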

How the data were processed

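The authors deposited a linear intensity for each probe set of every array, made with MAS5 according to the submitters' processing notes. The deposited intensities had a mean of 200.0 on each array once the lowest and highest 2% were left out, so the arrays share a level. Of 45101 probe sets, 64 controls were left out, 34945 had 1 gene symbol in the platform annotation, 932 had several and stayed unnamed, and 9160 had none here. Symbols were updated through gene IDs where RefSeq's table for GRCm38.p6 held them (34741 probe sets). Signals were transformed to log2(signal + 16). Genes with a mean signal above 35.1 were tested by limma (version 3.58.1, R 4.3.3) on all 4 arrays without covariates, using eBayes with a variance trend and two-sided p-values, and the call threshold was an adjusted p (Benjamini-Hochberg) under 0.05. The fitting code was tested on simulated data. The number of arrays limits the precision. Detection calls were not used, so low signals are given as signals. The members and lists were chosen with earlier results of these data known, and counts of lists carry no test of their own. Every member with a probe set is named, and of other lists the 4 called genes of greatest change, Cdkn1a, Perp, Cdkn2a and the genes of a direction with 5 or fewer. Same-numbered arrays were not treated as pairs in the main fit. The labels give only replicate numbers, and deviations of these arrays from the genotype means correlated at 0.012. Alternatives were other pseudocounts, filters, normalizations, probe set rules, no trend, a replicate block and each array left out. Figures were drawn with matplotlib 3.10.9.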

Additional observations from a re-analysis of the deposited data

How the results depend on the processing

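Across 14 alternatives, 23 of the 34 members kept their direction and their side of the threshold in every fit that tested them: 19 that fell, 3 that rose (Fas, Ddb2 and Rrm2b) and Pmaip1, which did not pass. Members with a single probe set, such as Phlda3, Fas and Crip2, have the same values under both probe set rules. Those rules could not change their differences. Plk2, Ak1 and Ercc5 had a second probe set below the filter and were not tested with the second brightest. The number of members that fell was 24 in the main analysis and 18 to 24 over the alternatives. The lowest, 18, was under the filter at the 75th percentile of signal, which tests 20 members. That filter called 5189 of 6832 genes in either direction, against 7212 of 11056 in the main analysis. The number that rose was 7, and 5 to 6 when an array was left out. Under a filter at the 75th percentile of signal, which tests 20 members, 2 rose, and with the mean of all probe sets or the second brightest probe set 4 rose. For other p53 targets, 3 rose with the mean of all probe sets and 3 with the second brightest, in place of 6. For the upstream regulators, 10 rose, and 6 to 7 when an array was left out. In the cell cycle list 1 rose, and 0 with either of these probe set rules (limma, also 0 at an unadjusted p under 0.05). Xpc, near 0 throughout, turned to -0.063 with quantile normalization and to -0.0049 with median centring, and ran from -0.071 to 0.081 when an array was left out. Ercc5 ran from -0.12 to 0.43 when an array was left out. With the replicate block, 7418 of all genes passed against 7212 without it, and of the members 24 fell and 7 rose. The cause of these changes was not tested. Signals near background limit Eda2r and Plk3, which were below the filter in SMRTmRID, and Pidd1, with 1 SMRTmRID array below it.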
